A study of Sus scrofa domesticus with 34 samples.

Results

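The 8 genes described here encode sarcomere proteins and were listed together as fast-twitch genes: ACTA1, TNNC2, TNNT3, TNNI2, MYL1, MYLPF, MYOZ1 and ACTN3. They were taken by name from the 31907 genes of the 34 deposited count tables. Of the 8, 7 were found under the listed symbol, and MYLPF was found under MYL11, its current symbol (ENSSSCG00000007799), a match made after the values had been seen. All 8 passed the filter on low counts, which kept 13974 genes for the tests.

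The sarcomere is the contractile unit of striated muscle, in which thick filaments of myosin pull on thin filaments of actin that are anchored in the Z-disc. Calcium binds troponin C, and the troponin complex then moves tropomyosin so that myosin can reach actin. Fibres that contract fast and fibres that contract slowly use different isoforms of many of these proteins, and pig muscles differ widely in their share of each. MYL1 and MYLPF are the essential and the regulatory light chain of fast myosin, MYOZ1 binds calcineurin at the Z-disc, and ACTN3 crosslinks actin there.

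The libraries came from pigs on 4 feeds and were labelled muscle in every case. The control feed held 2000 IU of cholecalciferol per kg for growers and 1500 IU for finishers (8 libraries, 4 female and 4 castrated male), and the increased feed held 3000 and 2500 IU (10 libraries, 6 female and 4 castrated male). The combination feed added 1000 IU of 25(OH)D, the hydroxylated form also called calcidiol, to the control doses in each phase (8 libraries, 4 of each sex). The 25(OH)D feed replaced cholecalciferol by 25(OH)D at 2000 and 1500 IU (8 libraries, 4 of each sex). The sources used here name no age or breed and no particular muscle. Values are CPM, counts of 3′-end reads relative to library size, with library sizes scaled by the TMM method of edgeR, unless total counts are named. Each transcript gives about 1 read site whatever its length, so that CPM was not scaled by length. Reads outside annotated genes (16.4 to 29.9% of a library) and with more than 1 alignment (11.2 to 20.7%) were not assigned to genes. A gene can lose reads in this way, so that levels of different genes compare only roughly. Each difference is a log2 fold change from edgeR's quasi-likelihood test with diet and sex in the model, with its standard error (SE), and p-values were adjusted over all genes tested by the Benjamini-Hochberg method.

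Total counts in genes ran from 1340442 to 30363640 per library. They followed the numbers in the names of the deposited files: 4082918 to 13172623 counts in file numbers 1 to 24, 16812323 to 30363640 in 25 to 29, and 1340442 to 2687728 in 30 to 34. No source used here says what these runs of numbers stand for. File numbers 30 to 34 came from the combination feed (4 of its 8) and from 25(OH)D (1 of its 8), with none from the other feeds, so that run and diet overlap in part. The labelled tissue was set against marker genes in CPM of total gene counts. Of 12 skeletal muscle markers 6 were matched, and their summed level was 335 to 1648 CPM over the diets. Median levels were 340 CPM for NEB, 298 for CKM, 65.3 for PYGM, 16.8 for ENO3 and 2.05 for DES. CACNA1S was at 0 in 18 libraries. MYH1, MYH2, MYH4, TTN, RYR1 and MB were not analysed here. The summed level of 7 neuron markers was 3272 to 9201 CPM, that of 4 oligodendrocyte markers 2290 to 14155 CPM and that of 4 astrocyte markers 1572 to 6360 CPM. In bulk tissue, fewer muscle fibres and less of these transcripts per fibre cannot be told apart, and the part that tissue makeup has in the differences below was not tested.

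The 8 genes spanned a wide range of CPM, with the limit on comparing genes given above. ACTA1, the actin of skeletal muscle thin filaments, was the most abundant at 1635 ± 912 CPM (SD, n = 34), followed by TNNC2, the calcium-binding fast troponin C, at 939 ± 374 CPM and MYLPF at 804 ± 332 CPM. TNNI2, the inhibitory fast troponin I, averaged 162 ± 69.2 CPM, ACTN3 83.6 ± 34.6 CPM and TNNT3, the tropomyosin-binding fast troponin T, 61.9 ± 30.1 CPM. MYOZ1 averaged 21.8 ± 8.99 CPM and MYL1 was the scarcest at 6.38 ± 2.72 CPM, with 10 to 169 counts per library. The spread within each gene was wide, from 6.35-fold between the lowest and the highest library for TNNC2 to 12.5-fold for MYL1. Per library, TNNC2 was above MYLPF in each of the 34 (log2 ratio 0.02 to 0.91), whereas the log2 ratio of ACTA1 to TNNC2 ran from −0.26 to 1.39 and that of TNNT3 to ACTN3 from −1.07 to 0.12, so that the order of those neighbours was not the same in every library. TNNC2 stood 2.55 ± 0.23 log2 units above TNNI2 and 3.95 ± 0.20 above TNNT3 (SD, n = 34). Together the 8 genes took 0.118 to 0.795% of the gene counts of a library. Their biological variation in edgeR, 34.5% for TNNC2 to 45.1% for ACTA1, stood above the median of 31.8% over all genes tested.

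A pair of libraries stood at the ends of this range. Control replicate 1 was the lowest of the 34 for every one of the 8 genes, with 443 CPM of ACTA1, 296 of TNNC2, 15.3 of TNNT3, 50.4 of TNNI2, 1.23 of MYL1, 250.1 of MYLPF, 4.32 of MYOZ1 and 27.4 of ACTN3. It also had the highest share of reads outside annotated genes, 29.9%, and the lowest share of reads with more than 1 alignment, 11.2%. 25(OH)D replicate 1 was the highest for TNNC2 (1879 CPM), TNNI2 (366 CPM), MYL1 (15.4 CPM), MYLPF (1859 CPM) and ACTN3 (202 CPM), and had 2786 CPM of ACTA1. That library had the fewest genes with at least 1 count of the 34, 15610, at 6413953 total counts. These libraries are in the 2 groups compared for the 2 forms of vitamin D.

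**Figure D1:**
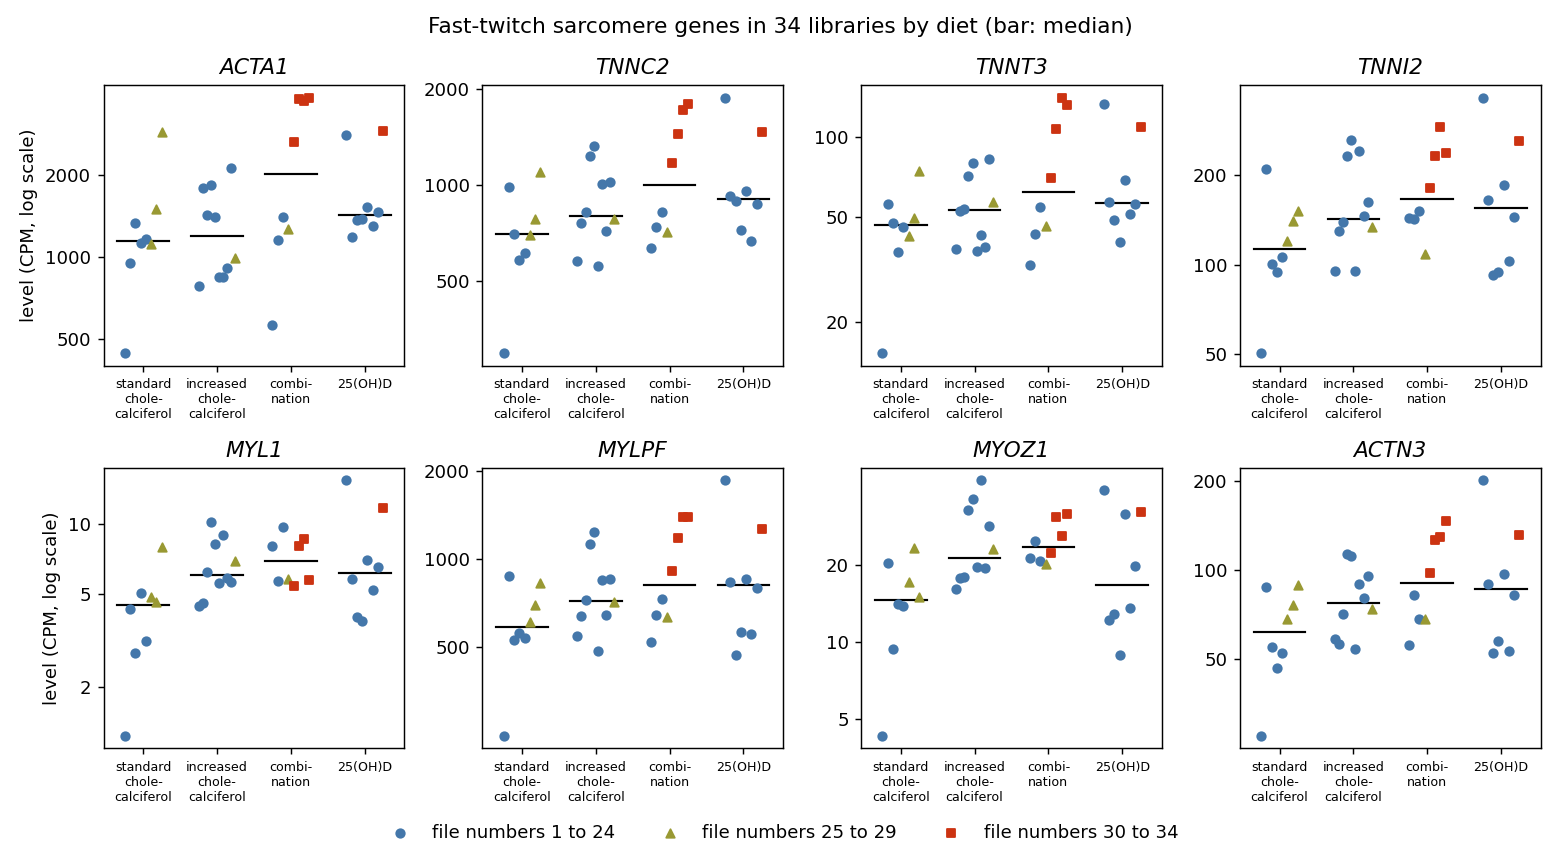
Level of each gene in every library (CPM, log scale) by diet. Points are libraries, coloured by run of file numbers, and bars are medians. The libraries of file numbers 30 to 34 sit in the upper part of the combination diet for ACTA1 (2642 to 3831 CPM there), and all 4 diets overlap for each gene.

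In the fitted model the combination feed was above the control for all 8 genes, by 0.61 to 0.83 log2 units, but none passed after adjustment, and without file numbers 30 to 34 the 8 differences were −0.30 to 0.69. The differences were −0.00 to 0.78 with the increased feed and 0.42 to 0.77 with 25(OH)D, and none passed. The 3 comparisons share the 8 control libraries, and the levels of the 8 genes follow each other across libraries, so that the genes are not separate pieces of evidence. Groups overlapped for each of the 8 genes in each of these comparisons.

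For the thin filament, ACTA1 ran from 443 to 2856 CPM in the control libraries (median 1139) and from 778 to 2114 CPM with the increased feed (median 1189.8). It ran from 563 to 3831 CPM with the combination (median 2019) and from 1181 to 2879 CPM with 25(OH)D (median 1419.5). The combination libraries held both low and very high values, and the control range reached into all other groups. ACTA1 differed from the control by −0.00 (SE 0.32) with the increased feed, 0.83 (SE 0.33) with the combination and 0.42 (SE 0.33) with 25(OH)D. TNNC2 ran from 296 to 1099 CPM in the control libraries (median 699), 556 to 1322 with the increased feed (median 799.6), 635 to 1789 with the combination (median 997) and 663 to 1879 with 25(OH)D (median 906). Its medians stood in the same order as those of ACTA1, lowest in the control and highest in the combination, and the groups overlapped. The TNNC2 differences from the control were 0.31 (SE 0.24), 0.67 (SE 0.25) and 0.55 (SE 0.25) for the increased, combination and 25(OH)D feeds.

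The other 2 troponins gave a like picture at lower levels. TNNT3 had medians of 46.3 CPM in the control libraries (15.3 to 74.5), 52.8 with the increased feed (37.0 to 82.2), 62.1 with the combination (32.7 to 140.3) and 56.3 with 25(OH)D (40.1 to 133). Its differences from the control were 0.27 (SE 0.28), 0.76 (SE 0.29) and 0.61 (SE 0.29) in that order of feeds. TNNI2 had medians of 113 CPM in the control libraries (50.4 to 210.3), 143 with the increased feed (94.998 to 264), 166 with the combination (109 to 290.3) and 155 with 25(OH)D (92.1 to 366). The highest TNNI2 values were single libraries of 25(OH)D and of the combination, and the lowest was control replicate 1. The TNNI2 differences were 0.44 (SE 0.26), 0.62 (SE 0.28) and 0.54 (SE 0.28).

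Among the myosin light chains, MYL1 had medians of 4.47 CPM in the control libraries (1.23 to 7.96), 6.02 with the increased feed (4.46 to 10.2), 6.91 with the combination (5.44 to 9.71) and 6.17 with 25(OH)D (3.84 to 15.4). MYL1 was lowest in control replicate 1 and highest in 25(OH)D replicate 1. Its differences were 0.65 (SE 0.27), 0.74 (SE 0.29) and 0.77 (SE 0.28) in the same order. MYLPF had medians of 585 CPM in the control libraries (250.1 to 875), 719 with the increased feed (485 to 1238), 819.5 with the combination (522 to 1393) and 819 with 25(OH)D (473 to 1859). The differences of MYLPF were 0.37 (SE 0.25), 0.61 (SE 0.26) and 0.57 (SE 0.26).

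At the Z-disc, MYOZ1 had medians of 14.6 CPM in the control libraries (4.32 to 23.2), 21.3 with the increased feed (16.2 to 42.8), 23.5 with the combination (20.2 to 31.7) and 16.7 with 25(OH)D (8.88 to 39.4). MYOZ1 was at its highest in increased replicate 7, not in 25(OH)D replicate 1 or in file numbers 30 to 34. It differed from the control by 0.78 (SE 0.27) with the increased feed, 0.73 (SE 0.28) with the combination and 0.52 (SE 0.28) with 25(OH)D. ACTN3 had medians of 61.5 CPM in the control libraries (27.4 to 88.9), 77.2 with the increased feed (54.0 to 114), 90.0 with the combination (55.7 to 146) and 85.9 with 25(OH)D (52.3 to 202). The ACTN3 differences were 0.37 (SE 0.24), 0.63 (SE 0.26) and 0.61 (SE 0.25).

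Set against all genes, these differences stood on the upper side without passing the test. With the increased feed 7 of the 8 genes were above 0 (median 0.37, against 0.01 over all genes tested), and 0 of the 8 passed after adjustment, where 0% of all genes passed; 2 of the 8, MYOZ1 (edgeR unadjusted p = 0.00646, adjusted p = 0.623) and MYL1 (unadjusted p = 0.0205, adjusted p = 0.623), were below an unadjusted 0.05, where 7.77% of all genes were. With the combination 8 of 8 were above 0 (median 0.70, against −0.00 over all genes), 0 of 8 passed (0% of all genes), and 8 of 8 were below an unadjusted 0.05, where 4.34% of all genes were; edgeR's unadjusted p ran from 0.0107 for TNNC2 to 0.033 for TNNI2, and the adjusted p was 0.999 for each. With 25(OH)D 8 of 8 were above 0 (median 0.56, against −0.01), 0 of 8 passed (0% of all genes), and 5 of 8 were below an unadjusted 0.05 (TNNC2, TNNT3, MYL1, MYLPF and ACTN3), where 3.23% of all genes were; edgeR's adjusted p was 1.00 for each. In the combination against the control, 5 of 5 tested skeletal muscle markers were above 0 (median 0.59). So were 4 of 4 smooth muscle (median 0.81), 2 of 2 adipocyte (median 0.67) and 4 of 4 astrocyte markers (median 0.15). The 2 tested heart markers, ACTC1 and MYH6, also listed as slow and cardiac isoforms, were above 0 too (median 0.43). TNNI3, another heart marker, was at 0 in 27 libraries. Above 0 were 3 of 4 liver (median 0.11), 2 of 4 oligodendrocyte (0.08) and 3 of 7 neuron markers (−0.08). The 1 erythroid marker tested was at −0.20. No marker passed. The summed level of the smooth muscle markers was 22.7 to 77.5 CPM in the control and 30.2 to 389.8 CPM in the combination libraries, and that of the adipocyte markers 2.55 to 5.59 and 2.45 to 11.9 CPM; their part in the result was not tested. The comparison of 25(OH)D with the control sets cholecalciferol against 25(OH)D at matched doses, and its intervals were wide: the 95% interval was 0.05 to 1.05 for TNNC2 and −0.25 to 1.09 for ACTA1.

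**Figure D2:**
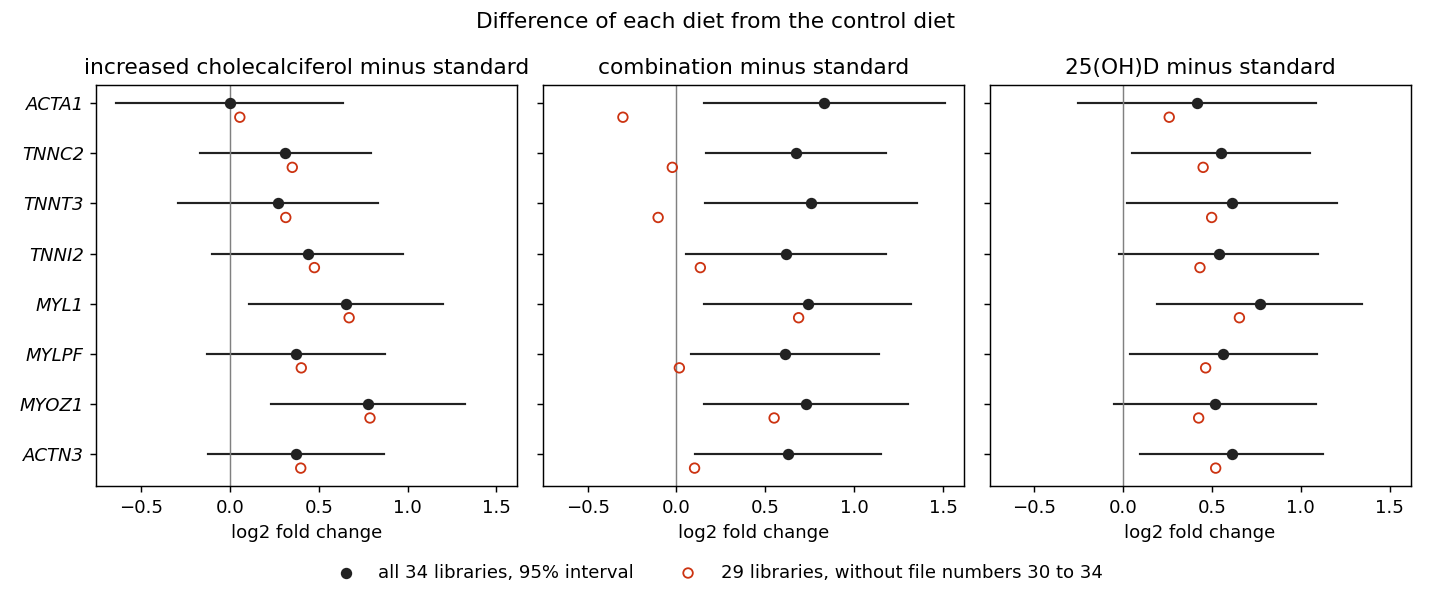
Difference of each gene from the control feed (log2 fold change, x axis) for the 3 other feeds. Filled points with lines are edgeR estimates from all 34 libraries with 95% intervals, and open points are estimates from 29 libraries without file numbers 30 to 34. For the combination the ACTA1 estimate moves from 0.83 to −0.30.

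These counts and differences moved with single libraries, in both directions. In 25(OH)D against the control the count of members below an unadjusted 0.05 was 5 with all libraries. It was 0 without 25(OH)D replicate 1, 1 without control replicate 1, 2 without 25(OH)D replicate 8 and 3 without control replicate 4 or 5. It was 7 without 25(OH)D replicate 3, 4 or 6 or control replicate 2 or 8. The share of all genes below an unadjusted 0.05 was 2.41% to 4.77% over these fits. Without 25(OH)D replicate 1 the 8 differences were 0.27 to 0.52 (median 0.33, against 0.56 with it), and TNNI2 went from 0.54 to 0.27, MYLPF from 0.57 to 0.32, ACTN3 from 0.61 to 0.35 and MYOZ1 from 0.52 to 0.30. Without control replicate 1 they were 0.28 to 0.64 (median 0.44). For the combination the count was 8 with all libraries, 5 without control replicate 1, 5 without combination replicate 7 and 3 without combination replicate 8, and 7 or 8 without any other library, where 2.92% to 5.8% of all genes were below an unadjusted 0.05. For the increased feed it was 2 with all libraries, 1 without control replicate 1 and 3 without control replicate 2, where 4.76% to 9.97% of all genes were. With each library left out in turn, all 8 differences stayed above 0 for the combination (0.49 to 1.07) and for 25(OH)D (0.27 to 0.96), and 7 or 8 did for the increased feed.

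The run of file numbers moved the combination most. Without file numbers 30 to 34 the combination differed from the control by −0.30 for ACTA1, −0.02 for TNNC2, −0.10 for TNNT3, 0.13 for TNNI2, 0.02 for MYLPF and 0.10 for ACTN3, so that 3 of these 6 estimates had the opposite sign, and by 0.69 for MYL1 and 0.55 for MYOZ1. The count of members below an unadjusted 0.05 was then 0, where 7.33% of all genes were. Within file numbers 1 to 24 alone, with 3 combination and 5 control libraries, the differences were −0.01 for ACTA1, 0.15 for TNNC2, 0.06 for TNNT3, 0.33 for TNNI2, 0.15 for MYLPF, 0.33 for ACTN3, 0.84 for MYOZ1 and 1.17 for MYL1. With a term for the runs in the model they ran from −0.10 for ACTA1 to 0.71 for MYL1. For the other 2 feeds the same 24 libraries gave differences above 0 for all 8 genes, from 0.41 (ACTA1) to 1.05 (MYOZ1) with the increased feed and from 0.52 (TNNI2) to 1.01 (MYL1) with 25(OH)D. In these 24 libraries 4 of 8 were below an unadjusted 0.05 with the increased feed, where 7.55% of all genes were, 1 of 8 with the combination, where 10.3% were, and 5 of 8 with 25(OH)D, where 2.2% were. In none of these fits did a member pass after adjustment. File numbers 25 to 29 hold 3 control libraries and 1 library each of the increased feed and the combination, and 30 to 34 hold 4 of the combination and 1 of 25(OH)D, so that diets were not compared within them.

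Between the fed groups no member passed either. ACTA1 was higher with the combination than with the increased feed by 0.83 (SE 0.31), with an unadjusted p of 0.0108 and an adjusted p of 0.931 in edgeR. It was the 1 member below an unadjusted 0.05 in that comparison, where 4.14% of all genes were and 0% passed. The remaining 7 differences between those feeds ran from −0.05 for MYOZ1 to 0.49 for TNNT3. In 25(OH)D against the increased feed the members ran from −0.26 for MYOZ1 to 0.42 for ACTA1, with 0 of 8 below an unadjusted 0.05, where 12% of all genes were and 0% passed. In 25(OH)D against the combination they ran from −0.41 for ACTA1 to 0.03 for MYL1, with 0 of 8 below an unadjusted 0.05, where 7.57% were and 0% passed. Without file numbers 30 to 34 the ACTA1 difference was −0.36 for the combination against the increased feed and 0.56 for 25(OH)D against the combination, the opposite sign in both.

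No difference by sex was detected for these genes. In females, ACTA1 ran from 443 to 3794 CPM (median 1238, n = 18), and in castrated males from 563 to 3831 CPM (median 1386, n = 16). The sexes overlapped over most of the range. The 8 differences of females from castrated males ran from −0.18 for MYL1 to 0.02 for MYOZ1, and 0 of 8 passed in edgeR, where 0.0787% of all genes did, and 0 of 8 were below an unadjusted 0.05, where 6.58% were. The smallest unadjusted p among them was 0.369, for MYL1. A test of whether the diet differences depended on sex gave edgeR unadjusted p-values of 0.168 to 0.865 for the 8 genes; 0 of 8 were below 0.05, where 2.75% of all genes were, and 0% of all genes passed after adjustment.

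With low counts filtered and with diet and sex in the model, ACTA1 was the 1 member that passed in edgeR in any comparison. It did so between file numbers 30 to 34 and 1 to 24. TNNT3 passed there too with no filter on low counts (edgeR adjusted p = 0.0196, 0.0467% of all genes passing). Without diet and sex in the model TNNT3 passed as well (edgeR adjusted p = 0.0221, 0.301% of all genes passing). In file numbers 30 to 34 ACTA1 stood at 2879 CPM in 25(OH)D replicate 8 and at 2642, 3794, 3727 and 3831 CPM in combination replicates 5 to 8. In file numbers 1 to 24 it ran from 443 to 2786 CPM (median 1312, n = 24), so that 4 of the 5 values were above all 24 and the fifth, in combination replicate 5, was within that range. With diet and sex in the model the ACTA1 difference of file numbers 30 to 34 from 1 to 24 was 1.67 (SE 0.32, edgeR adjusted p = 0.0186), the fifth smallest p among the 13974 genes. TNNT3 stood at 109, 69.8, 107, 140.3 and 131 CPM in the same 5 libraries, against 15.3 to 133 CPM in file numbers 1 to 24 (median 49.8). TNNC2 stood at 1466, 1173, 1450, 1725 and 1789 CPM, against 296 to 1879 (median 788). All 5 values of either gene were above the median of file numbers 1 to 24, and both groups overlapped.

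The other members differed less. TNNT3 differed by 1.34 (SE 0.30, edgeR adjusted p = 0.0782), TNNC2 by 1.09 (SE 0.26, adjusted p = 0.0825), MYLPF by 0.96 (SE 0.28, adjusted p = 0.167), ACTN3 by 0.90 (SE 0.28, adjusted p = 0.189) and TNNI2 by 0.86 (SE 0.31, adjusted p = 0.242). MYOZ1 differed by 0.50 (SE 0.34, adjusted p = 0.545) and MYL1 by 0.35 (SE 0.36, adjusted p = 0.703). One of 8 members passed, where 0.0716% of all genes did, and 6 of 8 were below an unadjusted 0.05, where 13.2% of all genes were. By DESeq2 3 of the 8 passed, ACTA1, TNNC2 (adjusted p = 0.0112) and TNNT3 (adjusted p = 0.00594), where 73 genes or 0.522% of all genes did. The edgeR call of ACTA1 was lost without combination replicate 6 (adjusted p = 0.0555), 7 (0.0527) or 8 (0.0593) and kept without combination replicate 5 (0.0299) or 25(OH)D replicate 8 (0.0283), with a difference of 1.60 to 1.90. File numbers 25 to 29 differed from 1 to 24 by −0.07 (TNNI2) to 0.34 (MYL1), with 0 of 8 passing in edgeR and 0 of 8 below an unadjusted 0.05, where 0% and 6.11% of all genes were.

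The combination feed allowed the runs to be compared within 1 diet, a comparison added after the values had been seen. Replicates 5 to 8 belong to file numbers 30 to 34 (3 females and 1 castrated male), and replicates 1 to 4 to lower numbers (1 female and 3 castrated males), so that run and sex partly go together here. ACTA1 was 3498 ± 572 CPM (SD, n = 4) in replicates 5 to 8, against 563, 1147, 1395 and 1267 CPM in replicates 1 to 4. The groups did not overlap, with a log2 difference of 1.74 (two-sided exact permutation p = 0.0286, adjusted over the 8 genes p = 0.0381). That p is the smallest that 4 against 4 libraries can give. TNNT3 was at 69.8, 107, 140.3 and 131 CPM against 32.7, 43.0, 54.3 and 46.0 CPM (log2 difference 1.31). TNNC2 was 1534 ± 282 against 726 ± 76.3 CPM (1.07), MYLPF 1219 ± 229 against 634 ± 85.8 CPM (0.93), ACTN3 125 ± 20.2 against 68.6 ± 11.0 CPM (0.86) and TNNI2 236 ± 44.7 against 137 ± 19.0 CPM (0.78).

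Thus 6 of the 8 genes were higher in replicates 5 to 8 without overlap, each at that same smallest exact permutation p, where 4.87% of all genes were higher without overlap and 5.21% were lower. MYOZ1 overlapped (27.6 ± 4.40 against 21.8 ± 2.12 CPM, exact permutation p = 0.0571, adjusted p = 0.0653), and MYL1 overlapped too (6.96 ± 1.60 against 7.31 ± 1.91 CPM, log2 difference −0.06, exact permutation p = 0.771). Of the neural genes, SNAP25, a synaptic protein gene, ranged from 1167 to 1484 CPM in file numbers 30 to 34 and from 464 to 2636 CPM in 1 to 24. MBP, a myelin protein gene, spanned 2252 to 3089 CPM there, against 1389.7 to 7606 CPM. With diet and sex in the model their differences between these runs were −0.29 and −0.42, and neither passed in edgeR. The summed level of the 6 skeletal muscle markers, none of them a member, was 1041 to 1577 CPM in file numbers 30 to 34 (median 1428). In 1 to 24 it was 335 to 1648 CPM (median 697). Of the 5 tested, 4 were above 0 (median 0.67) and 3 below an unadjusted 0.05, where 13.2% of all genes were. NEB was the 1 that passed in edgeR, where 0.0716% of all genes did. The 2 tested heart markers, ACTC1 and MYH6, also listed as slow and cardiac isoforms, were above 0 (median 1.15) and below an unadjusted 0.05. Of other markers in this comparison, 1 of 4 smooth muscle markers was above 0 (median −0.89). The 1 erythroid marker tested was at −0.96 and below an unadjusted 0.05. Medians were −0.12 for 7 neuron, −0.31 for 4 oligodendrocyte, −0.19 for 4 astrocyte, −0.13 for 4 liver and 0.43 for 2 adipocyte markers. Apart from NEB, no marker passed. The heart markers summed to 67.5 to 105.7 CPM in file numbers 30 to 34 and 20.2 to 81.7 CPM in 1 to 24. Genes with at least 1 count numbered 15625 to 16705 per library in file numbers 30 to 34 and 15610 to 18895 in 1 to 24 (median 18218). The value of 15610 was that of 25(OH)D replicate 1, and the next lowest in 1 to 24 was 17405. The share of reads with more than 1 alignment was 16.6 to 19.1% in file numbers 30 to 34 and 11.2 to 20.7% in 1 to 24. The part of depth, tissue makeup and library handling in this difference was not tested.

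Other muscle genes were read from 6 lists. In the diet comparisons with the control 0 genes of any list passed in edgeR. In the combination against the control, 10 of 12 tested genes of fast fibre metabolism and calcium handling were above 0 (median 0.51), as were 4 of 4 myosin heavy chain and myosin-binding genes (0.72), 14 of 14 other sarcomere and Z-disc genes (0.59), 4 of 4 genes of excitation-contraction coupling (0.49), 8 of 9 slow and cardiac isoforms (0.51) and 6 of 9 myogenic regulators (0.16). The median over all genes tested was −0.00. The most abundant genes of the first list were PVALB, a calcium buffer, at 0.48 (SE 0.23), and CKM, the muscle creatine kinase, at 0.92 (SE 0.36). MEF2C, a transcription factor of muscle and neurons, was at −0.08 (SE 0.37), and ATP2A2, the calcium pump of slow and cardiac muscle, at −0.09 (SE 0.10).

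In file numbers 30 to 34 against 1 to 24, 4 genes of these lists passed, where 10 of 13974 genes tested (0.0716%) did. All 10 were higher, these 4 among them. MYH3, the embryonic myosin heavy chain, differed by 1.85 (SE 0.35, edgeR adjusted p = 0.0186), TPM2, a tropomyosin of the thin filament, by 1.33 (SE 0.25, adjusted p = 0.0186), NEB, the giant thin filament protein nebulin, by 1.25 (SE 0.25, adjusted p = 0.0258) and PVALB by 1.18 (SE 0.22, adjusted p = 0.0186). TPM2 stood at 357 ± 56.6 CPM in the 5 libraries of file numbers 30 to 34 and 170 ± 60.5 CPM in the 24 of 1 to 24. The count by list was 1 of 12 for fast fibre metabolism, 1 of 4 for myosin heavy chains, 2 of 14 for other sarcomere genes, and 0 of 4, 0 of 9 and 0 of 9 for excitation-contraction coupling, slow isoforms and myogenic regulators. The myosin heavy chain genes resemble each other closely, so that reads may be split or lost between them.

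The levels of the 8 genes varied together across libraries. How many pairs of other genes would pass was not computed, so that the counts of pairs below have no background. All 28 pairs were positively correlated over the 34 libraries on the log2 CPM scale, with Pearson's r from 0.47 to 0.98 (median 0.82) and Spearman's rho from 0.40 to 0.96, and all 28 passed by either measure (100000 permutations, two-sided, adjusted over the 50 pairs computed). The closest pair was MYLPF and ACTN3 (r = 0.98, rho = 0.96), followed by TNNC2 and MYLPF (r = 0.96, rho = 0.93), TNNI2 and MYLPF (r = 0.96, rho = 0.93) and TNNC2 and TNNT3 (r = 0.96, rho = 0.91). For each of these the permutation p was 1e-05, the smallest that 100000 permutations can give, and the adjusted p was 1.67e-05 for r. Without the 2 libraries farthest from the median of the first gene, r was 0.96 for MYLPF and ACTN3, 0.94 for TNNC2 and MYLPF, 0.94 for TNNI2 and MYLPF and 0.93 for TNNC2 and TNNT3.

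**Figure D3:**
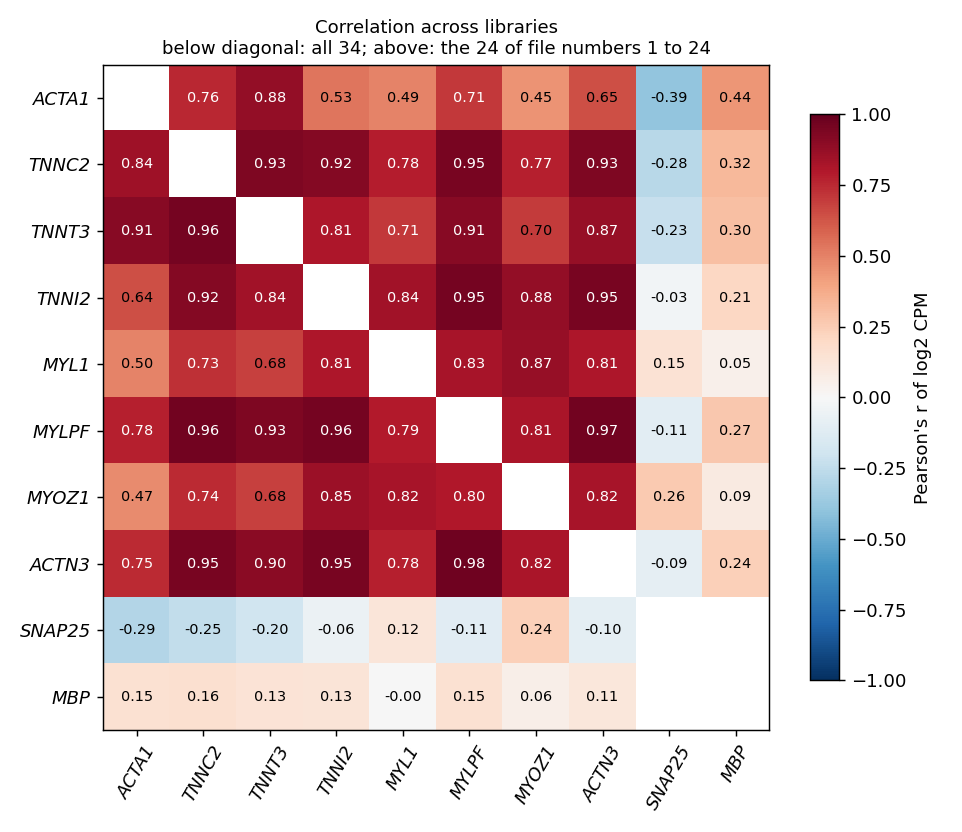
Pearson's r of log2 CPM between the 8 genes and with SNAP25 and MBP. Cells below the diagonal use all 34 libraries and cells above it the 24 of file numbers 1 to 24. The 28 pairs of members run from 0.47 to 0.98 below the diagonal, and the 16 pairs with SNAP25 and MBP from −0.29 to 0.24.

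ACTA1 had the lowest mean r with the rest, 0.70 over its 7 pairs close to MYL1 at 0.73 and MYOZ1 at 0.74. The mean r was 0.84 for TNNT3, 0.85 for TNNI2, 0.87 for TNNC2 and for ACTN3, and 0.89 for MYLPF. Its closest partner was TNNT3 (r = 0.91, rho = 0.85). Its weakest was MYOZ1 (r = 0.47, permutation p = 0.00417, adjusted p = 0.00632; rho = 0.42, adjusted p = 0.0228). That pair no longer passed by r without the 2 libraries farthest from the median of ACTA1 (r = 0.28, adjusted p = 0.157). Nor did that pair pass by r without file numbers 30 to 34 (r = 0.37, adjusted p = 0.074). It passed by r in file numbers 1 to 24 alone (r = 0.45, adjusted p = 0.0432) and after diet, sex and run were taken out (r = 0.42, adjusted p = 0.0224), but by rho in neither (adjusted p = 0.203 and 0.0961). ACTA1 and MYL1 followed (r = 0.50, permutation p = 0.00282, adjusted p = 0.00441; rho = 0.40, adjusted p = 0.0298). MYOZ1 and MYL1 correlated at 0.82 with each other (rho = 0.74). Within file numbers 1 to 24 all 28 pairs remained positive, with r from 0.45 to 0.97, and all 28 passed by Pearson's r and 25 by Spearman's rho. The 2 other runs hold 5 libraries each, too few for a correlation. After diet, sex and run were taken out of the values, r ran from 0.42 to 0.96 and 28 of 28 passed by Pearson's r.

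**Figure D4:**
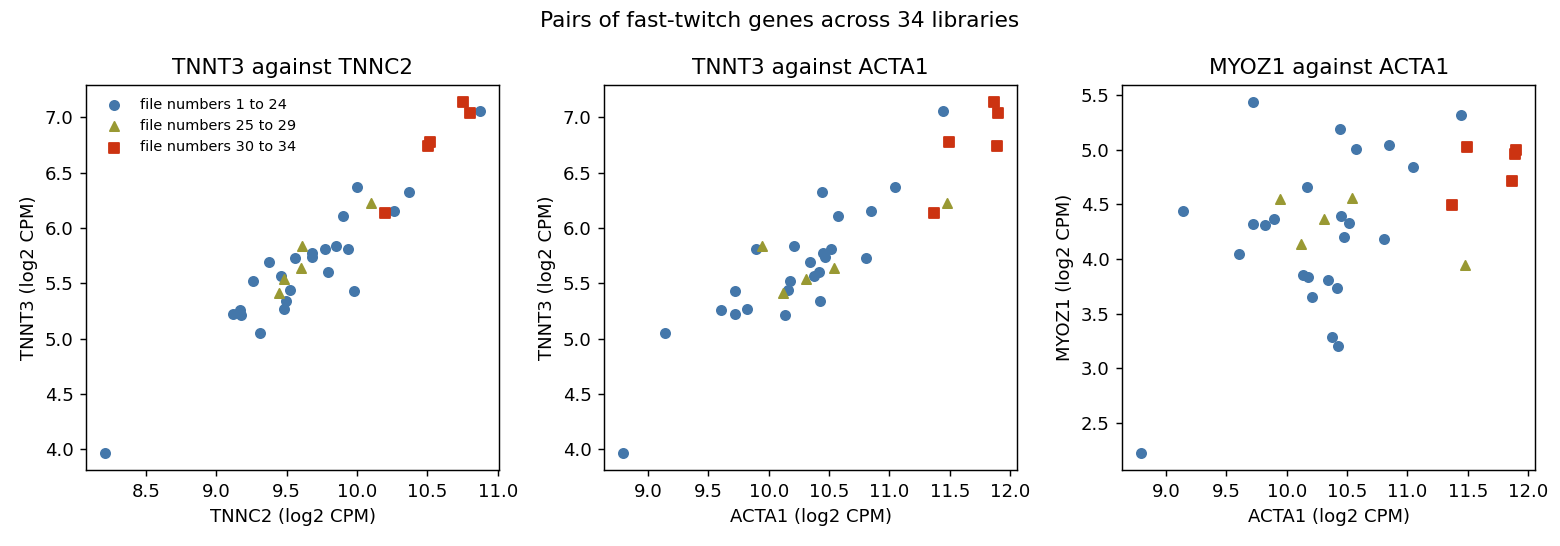
Pairs of genes in the 34 libraries (log2 CPM on both axes), coloured by run of file numbers. TNNT3 follows TNNC2 (r = 0.96) and ACTA1 (r = 0.91) closely, while MYOZ1 spreads widely at a given level of ACTA1 (r = 0.47).

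The ratio of 2 genes within a library shows the same in log2 units. MYLPF over ACTN3 had an SD of 0.13 over the 34 libraries and TNNC2 over MYLPF an SD of 0.15. ACTA1 over MYOZ1 had an SD of 0.73 and ACTA1 over MYL1 an SD of 0.69. ACTA1 over MYLPF averaged 1.46 ± 0.18 in the 5 libraries of file numbers 30 to 34 and 0.81 ± 0.44 in the 24 of 1 to 24 (SD), and MYLPF over ACTN3 averaged 3.28 ± 0.09 and 3.27 ± 0.14. The ranges of ACTA1 over MYLPF overlapped (1.19 to 1.68 against −0.01 to 1.53), and no test was made on these ratios.

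With neural genes no pair passed by Pearson's r. Over 34 libraries the 8 genes correlated with SNAP25 at −0.29 (ACTA1) to 0.24 (MYOZ1) and with MBP at −0.00 (MYL1) to 0.16 (TNNC2), and 0 of 16 pairs passed after adjustment. For ACTA1 and SNAP25, r was −0.29 (permutation p = 0.0906, adjusted p = 0.129), and −0.38 without the 2 farthest libraries. By Spearman's rho 3 of the 16 pairs passed, all with SNAP25: TNNC2 (rho = −0.41, adjusted p = 0.0248), TNNT3 (−0.37, adjusted p = 0.0412) and ACTA1 (−0.37, adjusted p = 0.0425). With total gene counts in place of TMM-scaled library sizes 0 of 16 passed by either measure. In file numbers 1 to 24 alone ACTA1 and MBP correlated at 0.44 and passed by Pearson's r, against 0.15 over all libraries. By Spearman's rho 0 of 16 pairs passed in those 24 libraries.

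Genes listed as slow or cardiac isoforms were paired with the members of the same protein family. All 6 pairs that could be formed were positive and passed by both measures, from MYLPF with MYL2, the slow and cardiac regulatory light chain (r = 0.91, rho = 0.90, permutation p = 1e-05, adjusted p = 1.67e-05), to TNNC2 with TNNC1, the slow and cardiac troponin C (r = 0.42, rho = 0.41, permutation p = 0.0126, adjusted p = 0.0185). MYL1 with MYL3 gave 0.80 (rho 0.73), ACTN3 with ACTN2 0.77 (0.73), TNNT3 with TNNT1 0.71 (0.77) and ACTA1 with ACTC1 0.70 (0.74), each with a permutation p of 1e-05 for r. TNNC1 was scarce, at 1.81 ± 1.64 CPM of total counts (SD, n = 34), and its pair no longer passed in 4 alternatives, among them file numbers 1 to 24 alone (r = 0.24) and removal of diet, sex and run (r = 0.02). TNNI1, the slow troponin I, did not pass the filter on low counts, at 0 in 11 libraries, and MYOZ2 was not analysed here.

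Among 11126 other genes with a symbol, those whose log2 CPM most resembled the mean pattern of the 8 genes over the 34 libraries were led by MYBPC1, a myosin-binding protein of slow fibres (r = 0.95), SLC25A4, the mitochondrial ADP/ATP carrier of muscle and other tissues (0.94), PGAM2, the muscle phosphoglycerate mutase (0.93), and the gene listed as ACTB (0.93), an actin. MYH13, MYH8, MYL2, MYBPC2, TPM2 and TRDN made up the rest of the first 10, at 0.92 to 0.88. These are descriptions of likeness, with no test, over libraries that differ in depth and in the levels of tissue markers. By single member, TPM2 was most like ACTA1 (r = 0.97), PGAM2 most like TNNC2 (0.97) and TNNT3 (0.95), SLC25A4 most like MYLPF (0.95) and ACTN3 (0.92), the ACTB gene most like TNNI2 (0.94) and MYOZ1 (0.93), and MYBPC1 most like MYL1 (0.85). In file numbers 1 to 24 alone the same genes had r of 0.87 to 0.96 with those members. The annotation places TNNI2 and TNNT3 close together, with 2 protein-coding genes between them, and their levels correlated at 0.84 (rho 0.78), less than TNNT3 with TNNC2 (0.96), which is not their neighbour.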

How the data were processed

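Frozen tissue gave RNA by Trizol, and QuantSeq forward kits made the 3′ libraries, per the labels' protocols. The tools listed in the submitters' processing notes are FastQC, TopHat, HTSeq and DESeq2, without versions; no build, annotation or strand setting is named in what was used here. Each library has 1 deposited table of unnormalized counts, read as whole reads per gene. Lines for reads in no gene, in several genes or at several places (35.0 to 48.3% of a table) were kept out of library sizes and tests, and genes with near-identical copies can therefore be undercounted.

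Counts were analysed with edgeR 4.0.16 in R 4.3.3: TMM scaling, the expression filter by diet, and a quasi-likelihood F-test with diet and sex over all 34 libraries; for runs of file numbers, the run was added. The threshold was an adjusted p of 0.05. Correlations used log2 CPM with a prior count of 3. Alternatives were DESeq2 1.42.0, limma-voom (limma 3.58.1), other scaling, no filter, a term for run, subsets of file numbers and each library left out. Scripts were tested on simulated data. The description of the series counts individuals, so that p-values measure the spread between animals. Replicate numbers are in accession order. MYOZ2 was not matched and TNNI1 failed the filter, so that 50 of the 52 planned pairs were computed. The members, lists and tests were chosen with earlier results of these data known. Named genes are all 8 members, listed genes past the threshold, the most abundant of the lists, slow or cardiac counterparts, and the genes most alike in pattern.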

Additional observations from a re-analysis of the deposited data

Results flagged for a closer look

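Within the groups of 5 to 10 libraries, 3 values stood apart from the rest of their group by more than Dixon's 95% limit. Of the 48 groups tested, chance marks about 1 in 20. These groups share libraries and the 8 genes follow each other, so that they are not separate tests. TNNC2 in control replicate 8 was at 1099 CPM, the highest of file numbers 25 to 29, where the next value was 779.8 CPM. The same library had 2856 CPM of ACTA1. TNNT3 in control replicate 1 was at 15.3 CPM, where the next control value was 36.8 CPM, and MYLPF in that library was at 250.1 CPM, where the next was 531 CPM.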

How the results depend on the processing

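No paired analysis was possible because the labels tie no library to a library of another diet. Under settings other than leaving out a library, 399 fold changes of members kept direction and side of the threshold, 69 changed sign and 4 came to pass the threshold. With each library left out, 1093 kept both, 72 changed sign and 3 no longer passed. No member that changed sign had passed. The cause of these changes was not tested. Genes passing between file numbers 30 to 34 and 1 to 24 numbered 10, against 73 with DESeq2, 42 without diet and sex in the model, and 2 to 17 with a library left out (17 without 25(OH)D replicate 8, and 2 without combination replicate 6, 7 or 8). Genes passing numbered 0 for combination against increased, but 1 with a term for run, 2 in file numbers 1 to 24 alone and 1 without 30 to 34. They numbered 0 for 25(OH)D against combination, but 8 in 1 to 24 alone and 2 without 30 to 34, and 11 for sex, but 18 with a term for run. Pairs with SNAP25 or MBP passing by Pearson's r numbered 0, but 1 in 1 to 24 alone and 1 in residuals.

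In file numbers 1 to 24 alone, 25(OH)D against combination was ACTA1 0.61, TNNC2 0.45, TNNT3 0.60, TNNI2 0.19, MYL1 −0.16, MYLPF 0.43 and ACTN3 0.40, and combination against increased was ACTA1 −0.43, TNNC2 −0.38, TNNT3 −0.42, TNNI2 −0.29, MYLPF −0.40 and ACTN3 −0.30. There TNNI2 was −0.099 and MYL1 −0.017 for 25(OH)D against increased, ACTA1 −0.012 for combination and 0.41 for increased against control, and MYOZ1 −0.013 for sex. With a term for run, 25(OH)D against combination was ACTA1 0.45, TNNC2 0.38, TNNT3 0.51, TNNI2 0.27, MYLPF 0.39, MYOZ1 0.00070 and ACTN3 0.39, and combination against increased was ACTA1 −0.28, TNNC2 −0.31, TNNT3 −0.35, TNNI2 −0.32, MYL1 −0.077, MYLPF −0.34 and ACTN3 −0.27. In that model TNNI2 was −0.053 for 25(OH)D against increased, ACTA1 −0.10 for combination and 0.17 for increased against control, and MYOZ1 −0.025 for sex. Without file numbers 30 to 34, 25(OH)D against combination was ACTA1 0.56, TNNC2 0.47, TNNT3 0.60, TNNI2 0.30, MYL1 −0.033, MYLPF 0.45 and ACTN3 0.42, and combination against increased was ACTA1 −0.36, TNNC2 −0.37, TNNT3 −0.42, TNNI2 −0.34, MYLPF −0.39 and ACTN3 −0.30. In those libraries TNNI2 was −0.043 and MYL1 −0.016 for 25(OH)D against increased, ACTA1 −0.30, TNNC2 −0.023 and TNNT3 −0.10 for combination against control, ACTA1 0.056 for increased against control, and MYOZ1 −0.046 for sex.

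By limma-voom, TNNT3 was 0.033 and MYL1 −0.041 for 25(OH)D against combination, ACTA1 0.065 for increased against control, MYOZ1 −0.024 for sex and TNNI2 1.5e-05 for file numbers 25 to 29. ACTA1 for increased against control was 0.0045 with DESeq2, 0.0043 with its size factors and 0.0018 with no filter. Without diet and sex, file numbers 25 to 29 against 1 to 24 gave TNNC2 −0.054, MYL1 −0.024, MYLPF −0.083, MYOZ1 −0.072 and ACTN3 −0.029. For correlations, MYL1 with MBP was 0.054 in 1 to 24 alone, 0.0065 with a prior count of 0.5, 0.065 in residuals and 0.032 without 30 to 34. TNNI2 with SNAP25 was 0.014 in residuals and 0.11 with total counts, where MYLPF and ACTN3 with SNAP25 were 0.057 and 0.084. ACTN3 with MBP was −0.028 without the 2 farthest libraries.

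Leaving out each library, 25(OH)D against combination ran from −0.26 to 0.094 for ACTN3, −0.22 to 0.14 for MYL1, −0.28 to 0.073 for MYLPF, −0.28 to 0.010 for TNNC2, −0.32 to 0.053 for TNNI2 and −0.34 to 0.049 for TNNT3. For 25(OH)D against increased it ran from −0.0084 to 0.33 for ACTN3, −0.13 to 0.21 for MYL1, −0.039 to 0.29 for MYLPF and −0.14 to 0.20 for TNNI2, and for combination against increased from −0.11 to 0.065 for MYOZ1. For sex it ran from −0.18 to 0.026 for ACTA1, −0.15 to 0.026 for ACTN3, −0.13 to 0.042 for MYLPF, −0.047 to 0.12 for MYOZ1, −0.11 to 0.078 for TNNI2 and −0.13 to 0.056 for TNNT3. For file numbers 25 to 29 it ran from −0.043 to 0.21 for TNNC2 and −0.14 to 0.046 for TNNI2, and for increased against control from −0.14 to 0.25 for ACTA1. MYL1 had as few as 10 counts in a library, so that counting error adds to its spread.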
